A study of Mus musculus with 27 samples.

Results

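Scavenger receptors outside class B were followed as 9 genes, Marco, Msr1, Olr1, Stab1, Stab2, Cd163, Colec12, Scara3 and Scara5, taken by name from the 55291 gene rows shared by 3 deposited tables of polyadenylated RNA. The tables covered 18 mouse libraries in 6 groups of 3. Both endothelial cells (EC) and peritoneal macrophages (PMAC), the phagocytes of the abdominal cavity, came as control, chylomicron-treated and SRBI knockdown groups. The other 9 of the 27 samples, small RNA from endothelial medium, were not analysed here. Chylomicrons are lipoproteins that the intestine loads with dietary fat, and SRBI is scavenger receptor class B type I, the lipoprotein receptor encoded by Scarb1. The series title concerns vesicles released by chylomicron-treated endothelial cells and inflammation of macrophages. The labels gave no strain, age, dose, time or knockdown method. They left unsaid what the chylomicron-treated macrophages were given (chylomicrons or endothelial vesicles), which cells carried the knockdown behind the macrophage libraries, and whether chylomicrons were added there too. The extraction protocol names murine lines called PL and PLA, and no sample label ties them to a library. Nothing says that the 3 libraries of a group came from separate animals or cultures, so the p-values below measure the spread between these libraries only, which may be technical.

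Scavenger receptors are cell surface proteins that bind modified lipoproteins, microbes and debris and carry them into the cell. Class A receptors have a collagen-like stalk. They include Msr1 (SR-A1), the classical receptor for acetylated and oxidized low-density lipoprotein on macrophages, and Marco, a receptor for bacteria and particles that is characteristic of resident peritoneal and alveolar macrophages. Olr1 encodes LOX-1, a lectin-like receptor for oxidized low-density lipoprotein first known from endothelium. Stab1 and Stab2 encode the stabilins, large receptors of sinusoidal endothelium, with Stab1 also on tissue macrophages. Cd163 encodes the macrophage receptor for haptoglobin-haemoglobin complexes. Scara5 binds ferritin, Colec12 encodes the collectin CL-P1 (SRCL) of vascular endothelium, and Scara3 encodes a stress-induced member of the class A family.

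Promoters are shown first for 3 receptors whose transcripts fell together in macrophages (Marco, Stab1 and Cd163) and for 1 that rose (Olr1), so that their results can be read beside their sequence. RefSeq promoters on GRCm38.p6 were used for 5 of the 9 genes. Msr1, Scara3, Scara5 and Colec12 are named only, which does not mean that RefSeq lacks a promoter for each of them. Each line gives the 250 bases before the start used by that table, 5′ to 3′ on the strand of the gene, with matches to any of 5 motifs in capitals. The windows are chr1:120505025-120505274 on the minus strand for Marco, chr14:31168642-31168891 on the minus strand for Stab1, chr6:124304401-124304650 on the plus strand for Cd163 and chr6:129507166-129507415 on the minus strand for Olr1. The outermost RefSeq gene span begins farther upstream for Olr1, so most of its window lies inside that span, as do the last few bases for Stab1 and Cd163.
Marco: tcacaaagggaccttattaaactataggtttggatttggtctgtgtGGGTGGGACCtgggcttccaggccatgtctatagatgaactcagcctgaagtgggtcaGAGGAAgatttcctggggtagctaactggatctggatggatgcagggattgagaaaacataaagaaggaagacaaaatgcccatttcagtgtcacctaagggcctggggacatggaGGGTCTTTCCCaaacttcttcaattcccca
Stab1: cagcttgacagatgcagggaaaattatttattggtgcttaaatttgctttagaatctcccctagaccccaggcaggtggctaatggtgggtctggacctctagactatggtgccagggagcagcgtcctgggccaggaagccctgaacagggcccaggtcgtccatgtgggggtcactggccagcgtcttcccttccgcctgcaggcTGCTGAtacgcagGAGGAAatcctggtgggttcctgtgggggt
Cd163: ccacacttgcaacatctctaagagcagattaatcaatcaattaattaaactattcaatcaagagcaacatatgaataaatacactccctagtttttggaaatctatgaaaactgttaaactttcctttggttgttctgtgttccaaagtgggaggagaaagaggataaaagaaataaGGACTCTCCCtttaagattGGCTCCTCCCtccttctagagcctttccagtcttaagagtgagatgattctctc
Olr1: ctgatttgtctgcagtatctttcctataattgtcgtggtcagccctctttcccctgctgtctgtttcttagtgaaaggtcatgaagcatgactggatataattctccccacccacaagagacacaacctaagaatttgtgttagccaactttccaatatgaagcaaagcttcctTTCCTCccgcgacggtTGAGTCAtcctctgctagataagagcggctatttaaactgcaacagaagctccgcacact
The motifs were searched on both strands. GAGGAA is the core of PU.1, the factor that specifies macrophages. TGANTCA is the AP-1 motif. The NF-kB motif was searched as 3 G, any 5 bases and 2 C. TGCTGA is a MAF half-site. TATAAA is the TATA box. The Marco window held the PU.1 core 146 bases before the start and the NF-kB motif at 204 and, on both strands in overlap, at 30 and 29. Stab1 held the MAF half-site at 43 and the PU.1 core at 30 bases before the start. Cd163 held the NF-kB motif on the reverse strand at 73 and 54, and Olr1 held the PU.1 core on the reverse strand at 76 and the AP-1 motif at 60. Among the 32851 RefSeq promoters of the same length, 23.3% held the PU.1 core, 6.75% the AP-1 motif, 45.8% the NF-kB motif, 16.1% the MAF half-site and 12.4% the TATA box. None of the 5 motifs was in all 3 windows shown for genes that fell. Colec12 fell too and has no window here.

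Reads assigned to genes numbered 40046820 to 46700757 per library in the EC table of chylomicron and control, 30547284 to 55874954 in the PMAC table and 16758727 to 20715157 in the table of EC with SRBI knockdown. The 2 shallowest PMAC libraries were chylomicron replicates 1 and 2. Scarb1 was lower in both knockdown groups than in controls. It lay at 1770 to 2149 normalized counts in PMAC SRBI knockdown, 1571 to 1832 in PMAC chylomicron and 2281 to 2355 in PMAC control. Against control the log2 difference by limma was -0.26 with knockdown (adjusted p = 0.0127) and -0.43 with chylomicrons (adjusted p = 0.000198). Between knockdown and chylomicron Scarb1 overlapped, with a difference of 0.17 (adjusted p = 0.163), so its fall was not particular to the PMAC knockdown group. In EC it lay at 114 to 120 reads per 1000000 (RPM) with knockdown and 251 to 302 RPM in controls. Of 12 macrophage markers, all exceeded 1 RPM in each PMAC group, while in EC controls 3 did, with C1qb and C1qc at 0 and Adgre1 at 0.00714 RPM. EC controls carried Eng at 604 RPM, Cdh5 at 363 and Pecam1 at 175, with Sox17 at 0. They also carried the fibroblast and mural genes Col3a1 at 15788, Col1a1 at 866 and Pdgfra at 804 RPM. Col1a2 and Cspg4 of the same list were low, at 0.348 and 0.0155 RPM. The list of 14 fibroblast and mural markers summed to 17416 to 20364 RPM in EC controls, most of it Col3a1. The 14 endothelial markers summed to 1447 to 1616 RPM there. The results below are therefore those of libraries labelled EC. In bulk RNA, fewer cells of a type and less RNA per cell cannot be told apart.

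The receptors divided by cell label. Marco, Msr1, Olr1 and Cd163 were macrophage transcripts, Scara5, Colec12 and Scara3 were higher in EC, Stab1 was plentiful in both, and Stab2 was close to 0 throughout. All levels across tables are RPM, each library rescaled to a total of 1000000 reads, and they compare groups for 1 gene, not genes with each other. The tables were normalized separately, so the difference between EC and PMAC was not tested. The control libraries of EC and PMAC did not overlap for any of the 9 genes. Of the 8 with a mean level of 0.25 RPM or more (not Stab2), 5 were higher in PMAC and 3 lower, beside a background at the same level of 87.5% of 15418 genes without overlap, 28.8% higher in PMAC and 58.7% lower.

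Marco (chromosome 1, 120474538 to 120505024, GRCm38) was at 13975, 14047 and 12485 RPM in the 3 PMAC controls and had 1 read in all 3 EC controls together. It had 0 reads in EC chylomicron and in EC SRBI knockdown, which allows up to 0.0230 and 0.0550 RPM over each group (a limit of 3 counts that covers counting error only). Msr1 (chromosome 8, 39543232 to 39642750) was at 1828, 1925 and 1792 RPM in PMAC controls and had 1 or 2 reads in each EC group. No fold is given for these 2 genes, whose reads in EC are at or below the counting limit. Every PMAC library held 56760 reads or more of each of them, where EC libraries held at most 1.

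Olr1 (chromosome 6, 129479150 to 129507350) was at 91.0, 94.0 and 89.1 RPM in PMAC controls and at 0.307, 0.128 and 0.0749 RPM in EC controls, 537-fold higher in PMAC. The receptor first described on endothelium was thus a low transcript in libraries labelled EC, with 3 to 13 reads per control library. Cd163 (chromosome 6, 124304636 to 124330529) was at 50.2, 53.4 and 46.3 RPM in PMAC controls and at 0.212, 0.107 and 0.0250 in EC controls, 436-fold higher in PMAC. Both ratios rest on few EC reads, 22 for Olr1 and 15 for Cd163 over the 3 controls. Without EC control replicate 1 the log2 ratio was 9.81 in place of 9.07 for Olr1 and 9.56 in place of 8.77 for Cd163.

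Scara5, the ferritin receptor (chromosome 14, 65666403 to 65764826), showed the opposite distribution, with 422, 478 and 461 RPM in EC controls and 2 reads in 1 of 9 PMAC libraries. Colec12 (chromosome 18, 9707648 to 9877995) was at 382, 453 and 431 RPM in EC controls and 84.8, 94.6 and 85.8 RPM in PMAC controls, 4.78-fold lower in PMAC. Scara3 (chromosome 14, 65919394 to 65953978) was at 1.96, 2.83 and 2.87 RPM in EC controls and 0.374, 0.459 and 0.435 in PMAC controls, 6.04-fold lower in PMAC. Scara3 was a minor transcript in PMAC, with 6 to 31 reads per library.

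Stab1 (chromosome 14, 31139017 to 31168651) was at 163, 176 and 150 RPM in PMAC controls and 109, 145 and 106 RPM in EC controls, 1.36-fold higher in PMAC. That difference was 0.44 on the log2 scale and 0.91 when both tables were scaled together by medians of ratios. Stab2 (chromosome 10, 86841194 to 87008038), the hyaluronan receptor of sinusoidal endothelium, had 13 reads over the 3 EC controls, 4 over EC chylomicron, 0 over EC SRBI knockdown, and in PMAC 4 reads, all in 2 knockdown libraries. Of 11 other sinusoidal and lymphatic endothelial markers only 3 exceeded 1 RPM in EC controls, Gpr182 at 53.4, Lyve1 at 31.8 and Flt4 at 30.9 RPM. Clec4g and Ccl21a were at 0.

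Across all 6 groups, the order of the means for Stab1 ran from PMAC control at 163 RPM through EC control (120), PMAC SRBI knockdown (93.8), PMAC chylomicron (71.3) and EC chylomicron (66.0) to EC SRBI knockdown (2.45), and only PMAC chylomicron and EC chylomicron overlapped among neighbours in that order. For Olr1 the order was PMAC SRBI knockdown (154 RPM), PMAC chylomicron (112), PMAC control (91.4), EC SRBI knockdown (1.26), EC control (0.170) and EC chylomicron (0.132), with overlap between the last pair alone. For Colec12 it was EC control (422), EC chylomicron (414), EC SRBI knockdown (169), PMAC control (88.4), PMAC SRBI knockdown (48.4) and PMAC chylomicron (35.8), with overlap between the first pair alone. Stab1 thus crossed between the cell labels in this order, whereas every PMAC group lay above every EC group for Olr1 and below for Colec12.

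**Figure D1:**
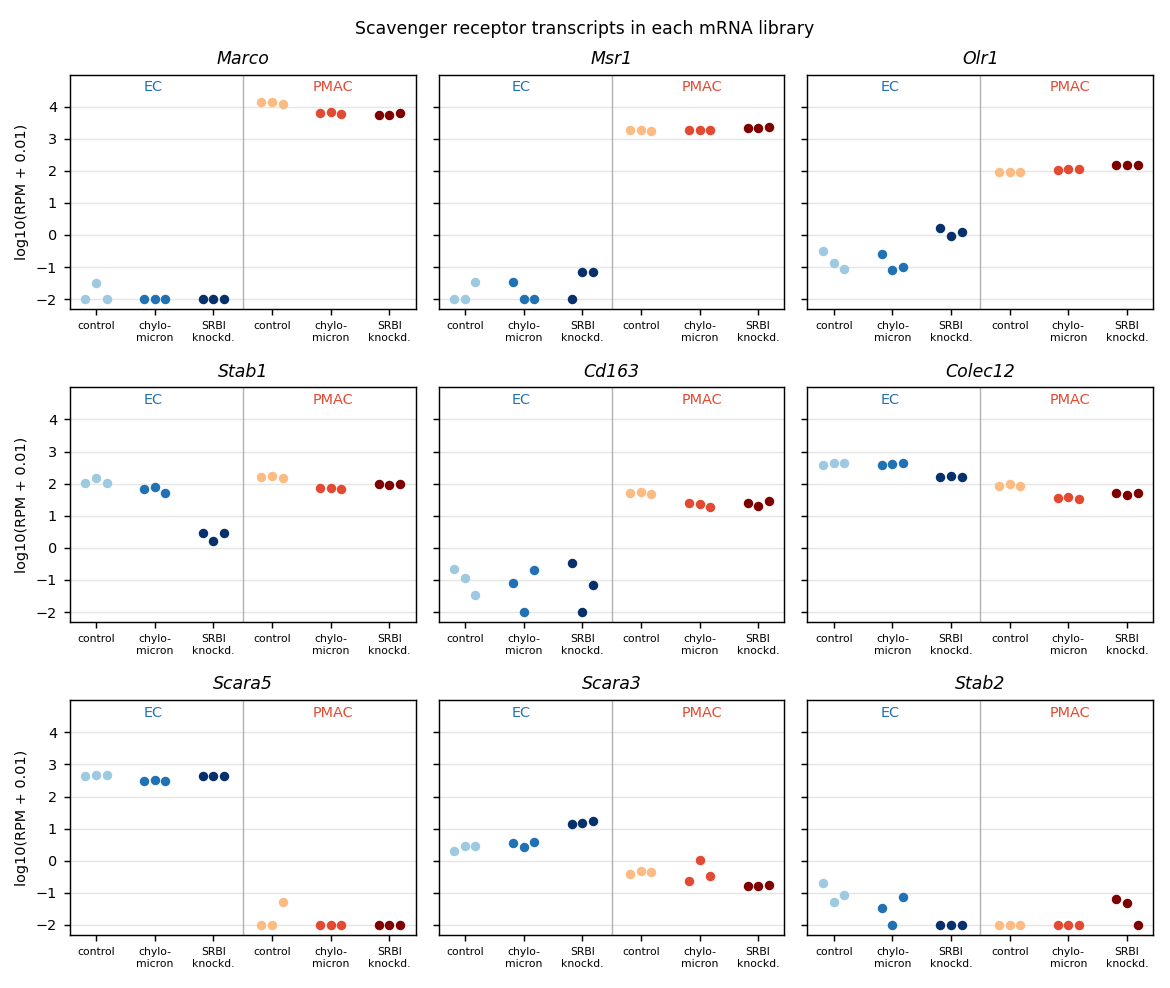
Levels of the 9 receptors in each of the 18 libraries, as log10 of RPM plus 0.01 (vertical axis), by group (horizontal axis), EC in blue and PMAC in red to orange. Marco, Msr1, Olr1 and Cd163 sit high in PMAC and near the floor in EC, Scara5 does the reverse, and Stab1 is at 2.45 RPM in EC SRBI knockdown.

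In macrophages labelled chylomicron-treated, 4 receptors fell, Colec12, Stab1, Cd163 and Marco, with log2 fold changes of -1.19 to -0.98, while Olr1 rose and Msr1 was slightly higher. Changes within the PMAC table were tested on log2 of the authors' normalized count plus 1 with limma, 3 groups in a single fit, in genes averaging 10 or more, and p-values were adjusted over all genes tested by Benjamini-Hochberg with a threshold of 0.05. Of the 9 receptors 7 passed the filter (not Stab2 or Scara5), and 2 rose, 4 fell and 1 did not pass the threshold. Over all 13630 genes tested, 33.4% were called, 16.0% higher (2178 genes) and 17.4% lower (2372). The groups did not overlap for 6 of the 7 receptors, 2 higher and 4 lower, beside 42.5% of all genes tested, 20.6% higher and 21.9% lower. With columns rescaled to equal totals the split was 1307 higher and 3766 lower, and the median log2 fold change of all genes moved from -0.01 to -0.13.

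Marco had 549702, 552391 and 484926 normalized counts in the 3 controls, against 258902, 300016 and 249422 with chylomicrons. The groups did not overlap, and the level in every chylomicron library was below that of every control. The difference was -0.98 ± 0.08 on the log2 scale (SE, n = 3 per group, adjusted p = 2.9e-08), or 1.97-fold lower. Of all genes tested, 6.92% had a lower fold change.

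Stab1 had 6412, 6928 and 5809 normalized counts in controls and 3007, 3264 and 2815 with chylomicrons. It fell by 1.07 ± 0.07 (adjusted p = 1.87e-09). Cd163 had 1976, 2101 and 1800 in controls and 1029, 996 and 800.0 with chylomicrons, and fell by 1.06 ± 0.12 (adjusted p = 1.26e-06). In both, the chylomicron libraries lay below the range of the controls. Colec12, known as a receptor of endothelium and placenta, had 3334, 3718 and 3332 normalized counts in controls and 1537, 1619 and 1410 with chylomicrons. It fell by 1.19 ± 0.07 (adjusted p = 4.46e-10), the lowest fold change of the 7 receptors tested in that comparison.

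Olr1 moved the other way, from 3580, 3695 and 3461 normalized counts in controls to 4647, 5003 and 4657 with chylomicrons. It rose by 0.41 ± 0.05 (adjusted p = 3.4e-06), 1.33-fold, with every chylomicron library above every control. Msr1 had 71909, 75712 and 69594 normalized counts in controls and 79787, 80338 and 77407 with chylomicrons, and rose by 0.13 ± 0.05 (adjusted p = 0.0474). That call was lost under 13 of 20 alternatives, with an adjusted p of 0.0108 to 0.824 over them and a fold change of 0.01 with columns rescaled to equal totals. It was also lost without PMAC chylomicron replicate 1 (adjusted p = 0.128) or 2 (0.104), control replicate 1 (0.117) or 3 (0.188), or SRBI knockdown replicate 1 (0.0644). Scara3 had 14.7, 18.1 and 16.9 in controls and 9.66, 43.9 and 13.0 with chylomicrons. Its groups overlapped, and the interval of its difference, -1.24 to 1.45 on the log2 scale (95%), was wide (adjusted p = 0.917). Without chylomicron replicate 2, which held 31 of the 50 reads of that group, the fold change was -0.52.

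Macrophages labelled SRBI knockdown, compared with the same controls, showed 2 receptors that rose, 4 that fell and 1 that did not pass, beside a background of 30.1% of genes called, 14.7% higher (1998 genes) and 15.5% lower (2111). With columns rescaled to equal totals the split was 1372 and 3022. The control libraries are shared with the chylomicron comparison, so the values are given side by side without a measure of likeness. The groups did not overlap for any of the 7 receptors tested, 2 higher and 5 lower, against 47.5% of all genes tested, 23.2% higher and 24.3% lower.

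Marco was at 228569, 223084 and 259025 normalized counts in the knockdown libraries, 2.23-fold below controls. It fell by 1.16 ± 0.08 (adjusted p = 3.11e-09), beside 0.98 with chylomicrons. Cd163 was at 1041, 832 and 1188, and fell by 0.95 ± 0.12 (adjusted p = 5.02e-06). Colec12 was at 2066, 1862 and 2094, and fell by 0.79 ± 0.07 (adjusted p = 1.06e-07). Stab1 was at 4093, 3596 and 3966 and fell by 0.71 ± 0.07 (adjusted p = 3.88e-07). Marco had the lowest fold change among the 6 receptors called here, whereas Colec12 had the lowest under chylomicrons.

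Olr1 was at 6329, 6325 and 6501 normalized counts with knockdown, within a narrow range, and rose by 0.84 ± 0.05 (adjusted p = 4.62e-10), 1.78-fold over controls. Msr1 was at 90899, 88365 and 94558 and rose by 0.33 ± 0.05 (adjusted p = 3.51e-05). For Olr1 and Msr1, every knockdown library lay above every control. Scara3 was at 6.47, 6.40 and 6.76 normalized counts, below every control, with a difference of -1.21 (95% interval -2.56 to 0.13, adjusted p = 0.170).

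**Figure D2:**
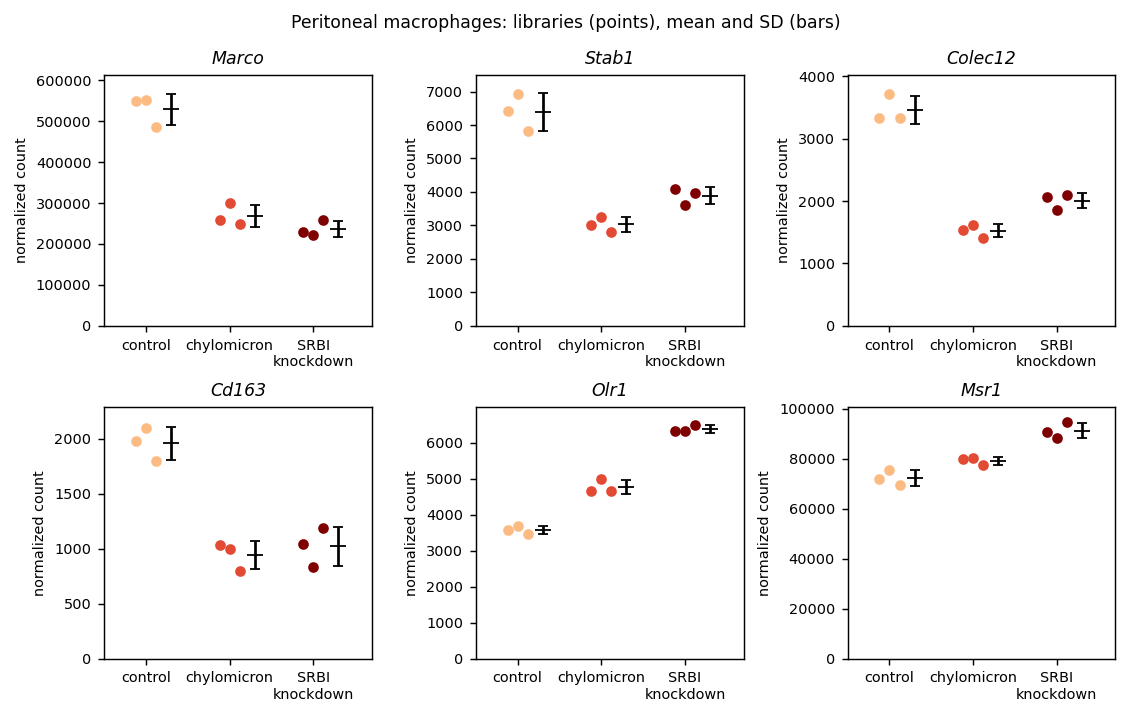
Normalized counts (vertical axis, from 0) of 6 receptors in the 9 PMAC libraries by group (horizontal axis). Points are libraries, and bars show the mean and SD of 3 libraries. Marco, Stab1, Colec12 and Cd163 lie lower in both labelled groups than in controls, and Olr1 steps up from control (3579) to chylomicron (4769) to SRBI knockdown (6385).

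Set directly against the chylomicron libraries, the knockdown libraries had higher Olr1, Colec12, Stab1 and Msr1. Of the 7 receptors tested 4 rose, 0 fell and 3 did not pass by limma (0 fell by edgeR and DESeq2 too, and Marco alone was lower at an unadjusted p under 0.05), beside a background of 11.2% called, 5.60% higher (763 genes) and 5.59% lower (762). With columns rescaled to equal totals the split was 1028 higher and 581 lower. The comparison shares its libraries with the 2 above. Olr1 differed by 0.42 ± 0.05 (adjusted p = 2.47e-05), Colec12 by 0.40 ± 0.07 (adjusted p = 0.00108), Stab1 by 0.36 ± 0.07 (adjusted p = 0.00283) and Msr1 by 0.20 ± 0.05 (adjusted p = 0.0105). In each of the 4, every knockdown library lay above every chylomicron library, and Scara3 lay below, beside a background of 27.3% of genes without overlap, 13.7% higher and 13.6% lower. Without the mean-variance trend the adjusted p was 0.0762 for both Stab1 and Msr1.

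Marco and Cd163 overlapped between the 2 groups. The difference was -0.18 for Marco (95% interval for the gene alone -0.35 to -0.02, adjusted p = 0.154) and 0.11 for Cd163 (-0.14 to 0.35, adjusted p = 0.619). Scara3 differed by -1.32 (-2.67 to 0.02, adjusted p = 0.210). Colec12 and Stab1 therefore lay between chylomicron and control in the knockdown libraries, Olr1 and Msr1 lay above both, and Marco and Cd163 were not separated from chylomicron.

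**Figure D3:**
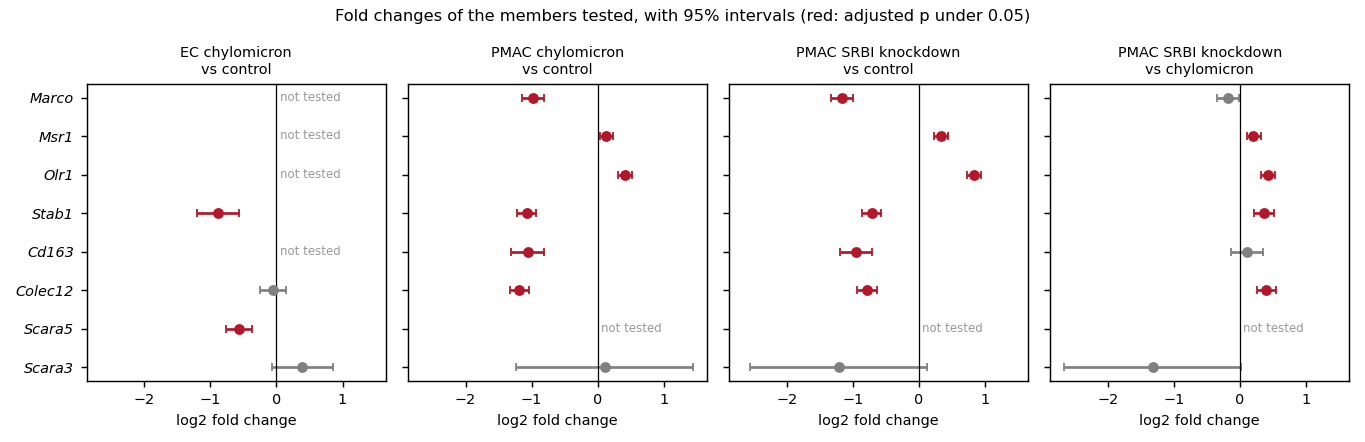
Log2 fold changes (horizontal axis) of the receptors tested in 4 comparisons (panels), with 95% intervals from limma for each gene alone. Red marks an adjusted p under 0.05 over all genes. Stab1 lies left of 0 in EC and in both comparisons with PMAC control, Olr1 lies right of 0 in all 3 PMAC panels, and the Scara3 intervals are wide in PMAC.

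Macrophage markers moved with these groups. The background of called genes was 16.0% higher and 17.4% lower with chylomicrons, and 14.7% and 15.5% with knockdown. The 12 macrophage markers summed to 47987 to 50626 RPM in PMAC controls, 29119 to 31339 with chylomicrons and 33100 to 36787 with knockdown, most of it Lyz2, which encodes lysozyme. Adgre1, which encodes a surface receptor of mature macrophages, was at 3424 ± 62.6 RPM in controls, 3210 ± 133 with chylomicrons and 3510 ± 64.9 with knockdown. Of the 12 markers 4 rose and 6 fell with chylomicrons, and 2 rose and 8 fell with knockdown. The 10 markers of resident large peritoneal macrophages summed to 2442 to 2806, 1793 to 2017 and 1999 to 2272 RPM in the same order, with 0 that rose and 4 that fell with chylomicrons by limma (0 also rose at an unadjusted p under 0.05 and by edgeR and DESeq2), 1 that rose and 4 that fell with knockdown, and Timd4 at 305 ± 29.4, 34.8 ± 1.21 and 28.8 ± 2.05 RPM. The 10 markers of small peritoneal macrophages and monocytes summed to 159 to 179, 454 to 516 and 305 to 350 RPM, most of it the class II gene H2-Ab1 at 101 ± 8.76, 462 ± 29.3 and 298 ± 22.4 RPM, with Cd209a at 0 in controls and with chylomicrons. Of the 7 tested in that list 3 rose and 3 fell with chylomicrons (median log2 fold change -0.56) and 1 rose and 3 fell with knockdown (median -0.34). The 14 fibroblast and mural markers summed to 88.0 to 106, 57.8 to 80.9 and 59.4 to 76.5 RPM. The part of these markers in the receptor results was not tested.

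Genes with the pattern nearest to each receptor over the 9 PMAC libraries were found among 9868 genes averaging 100 or more, by the root mean square difference of log2 values centred on the mean of each gene. Stab1 and Colec12 differed from each other by 0.060 and shared their nearest genes, Timp2 (0.043 from Stab1 and 0.048 from Colec12), an inhibitor of metalloproteinases, and Jup (0.059 and 0.048), which encodes plakoglobin. Marco was nearest to Aph1b (0.052), a gamma-secretase subunit, Prxl2b (0.061) and Ckb (0.087), brain-type creatine kinase. The 3 genes nearest to Cd163 included Lyz1 (0.104) and Arsg (0.107). The 3 nearest to Olr1 included Atp1b3 (0.056), a subunit of the sodium pump, and Psd4 (0.074). Msr1, whose own spread over the libraries was 0.14, was nearest to Hnrnpk (0.037), Seh1l (0.037) and Lmna (0.045). These likenesses describe the same 9 libraries that gave the fold changes.

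Other scavenger receptors changed in both directions in PMAC. Of 14 tested from a list of 20, 4 rose and 7 fell with chylomicrons, beside 16.0% of all genes higher and 17.4% lower, with a median log2 fold change of -0.26 against -0.01 over all genes. Mrc1, the mannose receptor, fell from 2135 ± 253 to 555 ± 156 normalized counts (log2 fold change -1.97, adjusted p = 5.88e-09). Cd5l, a secreted scavenger receptor cysteine-rich protein of macrophages, fell from 457 ± 34.5 to 113 ± 13.7 (-2.01), and Cd36 fell by 0.30. Clec7a, the beta-glucan receptor dectin-1, rose by 0.49 and Cxcl16, also a receptor for phosphatidylserine and oxidized lipoprotein, by 0.40. With knockdown 3 rose and 10 fell, beside 14.7% of all genes higher and 15.5% lower, with Cd36 at -0.54, Mrc1 at -1.82, Cd5l at -2.24 and Clec7a at 0.71. Between knockdown and chylomicron, 2 rose and 3 fell, led by Lgals3bp at -0.59, beside 5.60% of all genes higher and 5.59% lower.

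Genes that handle the cargo of Cd163 and Scara5 were read against the same backgrounds. Of 14 haemoglobin, haem and ferritin genes, 1 rose and 6 fell with chylomicrons and 0 rose and 7 fell with knockdown by limma, where 2 rose at an unadjusted p under 0.05 and 1 by edgeR and by DESeq2. Hp, which encodes haptoglobin, the partner of haemoglobin in the Cd163 ligand, fell from 26839 ± 690 to 12223 ± 2287 normalized counts with chylomicrons (-1.15, adjusted p = 5.27e-08) and by 0.57 with knockdown. Tfrc, the transferrin receptor gene, fell by 0.91 and 0.81. Hmox1, which encodes the haem-degrading enzyme haem oxygenase-1, fell by 0.23 with chylomicrons, whereas Fth1, the ferritin heavy chain gene, rose by 0.36. Between knockdown and chylomicron 2 rose and 2 fell, with Hp at 0.58.

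Genes around the stabilins were mixed. The background was 16.0% of all genes higher and 17.4% lower with chylomicrons, and 14.7% and 15.5% with knockdown. Of 9 genes tested for Stab1 sorting and ligands, 1 rose and 3 fell with chylomicrons and 0 rose and 5 fell with knockdown by limma (0 also rose at an unadjusted p under 0.05 and by edgeR and DESeq2). Tgfbi, which encodes a matrix protein that Stab1 takes up, fell by 1.41 and 0.86, and Sparc, another matrix ligand, by 0.56 and 0.72. Chid1, which encodes a chitinase-like protein that Stab1 sorts, rose by 0.30 with chylomicrons. Of 10 hyaluronan genes, 2 rose and 1 fell with chylomicrons. Has1, a hyaluronan synthase, rose from 30.4 ± 16.1 to 215 ± 11.7 normalized counts (2.93, adjusted p = 1e-06) and with knockdown to 283 ± 46.6. Cemip2, which encodes a cell surface hyaluronidase, rose by 1.01 and 0.76. Between knockdown and chylomicron, the background was 5.60% of all genes higher and 5.59% lower. Of the genes for Stab1 sorting and ligands 1 rose there, Tgfbi by 0.56, and 1 fell, Snx17 at -0.19. Of the hyaluronan genes 0 rose and 2 fell by limma, with 1 that rose at an unadjusted p under 0.05 and 0 by edgeR and DESeq2.

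Transcription factors linked to macrophage scavenger receptor genes changed in both directions. Of 16 tested, 8 rose and 5 fell with chylomicrons, beside 16.0% of all genes higher and 17.4% lower. With knockdown 6 rose and 5 fell, beside 14.7% of all genes higher and 15.5% lower. Cebpa fell by 1.08 and 1.02, and Spi1, which encodes PU.1, fell by 0.16 and 0.20, its groups overlapping under chylomicrons. Nfkb1 rose by 0.51 and 0.44. Between knockdown and chylomicron 1 rose and 2 fell, beside 5.60% of all genes higher and 5.59% lower. Irf7, an interferon response factor, was at 2989 ± 442 normalized counts with chylomicrons and 1206 ± 102 with knockdown (-1.30, adjusted p = 3.54e-07), and Maf, which encodes c-MAF, was at 2922 ± 216 and 5116 ± 448 (0.81, adjusted p = 5.65e-06).

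Genes of lipoprotein loading, the steps after uptake, were also split. Of 12, 3 rose and 7 fell with chylomicrons, beside 16.0% of all genes higher and 17.4% lower. With knockdown 3 rose and 6 fell, beside 14.7% and 15.5%. Between knockdown and chylomicron 3 rose and 3 fell, beside 5.60% and 5.59%. Lipa, the lysosomal acid lipase gene, fell from 56459 ± 2980 to 24872 ± 1152 normalized counts with chylomicrons (-1.18, adjusted p = 2.12e-11) and by 1.32 with knockdown, and Nceh1, a cholesteryl ester hydrolase gene, fell by 1.02 and 0.93. The cholesterol exporter gene Abca1 rose by 0.94 and 1.24, and Abcg1 by 0.61 and 0.83.

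In EC labelled chylomicron-treated, the ferritin receptor Scara5 and the stabilin Stab1 fell, and Colec12 and Scara3 did not pass the threshold. The EC fit used 6 libraries of a single table. Of the 9 receptors 4 passed the filter, and 0 rose and 2 fell by limma (0 rose by edgeR and DESeq2 too, and 0 at an unadjusted p under 0.05), beside a background of 8.45% of 15595 genes called, 5.16% higher and 3.28% lower. The groups did not overlap for the 2 that fell, beside a background of 24.7%, 13.1% higher and 11.6% lower.

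Scara5 had 18659, 20569 and 19597 normalized counts in controls and 12770, 14510 and 12343 with chylomicrons, so that the groups did not overlap. It fell by 0.57 ± 0.09 on the log2 scale (n = 3 per group, adjusted p = 0.00169), 1.49-fold. Stab1 had 4808, 6235 and 4512 normalized counts in controls and 2866, 3358 and 2208 with chylomicrons, again without overlap. It fell by 0.89 ± 0.15 (adjusted p = 0.00184), 1.85-fold, and without the mean-variance trend its adjusted p was 0.0817. Stab1 thus fell in EC and in PMAC, each against its own controls, and whether the 2 changes differ was not tested.

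Colec12 had 16878, 19466 and 18339 normalized counts in controls and 16792, 18106 and 17786 with chylomicrons. The groups overlapped, and the difference was -0.05 with a 95% interval of -0.25 to 0.15 (adjusted p = 0.827). Scara3 had 86.6, 122 and 122 in controls and 158, 114 and 160 with chylomicrons, a difference of 0.39 with an interval of -0.07 to 0.85 (adjusted p = 0.364). Olr1, Cd163 and Stab2 were below the filter, at 0 to 13 reads in each EC library of the 2 groups. Over the 6 EC libraries and 10995 genes, the pattern of Scara5 was nearest to Ptprk (0.013), a receptor tyrosine phosphatase gene, Ucp2 (0.028) and Cachd1 (0.031), and that of Stab1 to the noncoding RNA H19 (0.120), Anpep (0.129) and Rasgef1b (0.131).

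Endothelial markers moved in the same libraries, beside the same background of 5.16% of all genes called higher and 3.28% lower. Of 12 endothelial markers tested 0 rose and 5 fell by limma with chylomicrons (0 also rose at an unadjusted p under 0.05 and by edgeR and DESeq2), and the list of 14 summed to 1102 to 1480 RPM against 1447 to 1616 in controls. Of 6 sinusoidal and lymphatic markers tested 0 rose and 2 fell under the same tests, with Lyve1 at 1372 ± 78.3 normalized counts in controls and 839 ± 200 with chylomicrons (-0.74, adjusted p = 0.00553). Of 13 fibroblast and mural markers tested 1 rose and 1 fell, with list sums of 16288 to 18048 against 17416 to 20364 RPM. Macrophage markers summed to 57.7 to 58.7 RPM with chylomicrons and 59.8 to 73.3 in controls, led by Mertk, with C1qc at 0 in both groups and Adgre1 at 0 with chylomicrons. The part of these markers in the falls of Scara5 and Stab1 was not tested.

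In the EC libraries labelled SRBI knockdown Stab1 was far lower than in controls. It was at 2.80, 1.61 and 2.94 RPM, against 109, 145 and 106 RPM in EC controls and 66.6, 78.5 and 53.1 with chylomicrons. Its mean was 49.0-fold lower than in controls (2.45 ± 0.729 against 120 ± 21.7 RPM, SD, n = 3). Since these libraries were scaled in a separate table that has no controls, the values are set side by side with no test, and the table cannot be told apart from the knockdown. Of the 5 receptors with a mean level of 0.25 RPM or more, 4 did not overlap with controls, 2 higher and 2 lower, beside a background at the same level of 63.4% of 15763 genes, 36.0% higher and 27.3% lower. Of the 4 below that level (Msr1, Marco, Stab2 and Cd163), Stab2 did not overlap and was lower, at 0 reads against 2 to 8 per control library.

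Colec12 was at 167, 179 and 161 RPM with knockdown, below the controls at 422 ± 36.4 RPM, a log2 ratio of -1.32. Scara3 was at 14.2, 15.5 and 16.9 RPM, 6.08-fold above the controls at 2.55 ± 0.515. Olr1 was at 1.64, 0.895 and 1.23 RPM, 7.39-fold above controls, from 15 to 34 reads per library. Its log2 ratio was 2.89, and 3.63 without EC control replicate 1. Scara5, in contrast, was at 451, 450 and 435 RPM, within the range of the controls (422 to 478), a ratio of 0.982. Stab2 had 0 reads with knockdown against 13 in controls, from 2 to 8 per library. With 3 counts over the knockdown group taken as the floor, the control mean was 1.86-fold above it. That ratio leaves out the spread of the controls (0.102 ± 0.0767 RPM, SD) and rests on few reads. Cd163 overlapped with controls, from 0 to 7 reads per library, and Marco and Msr1 had 0 and 2 reads in all.

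Cell type markers differed between the same libraries. The 14 endothelial markers summed to 464 to 491 RPM with knockdown, against 1447 to 1616 in controls, with Cdh5 at 46.2 ± 3.19 against 363 ± 35.1 RPM. The sinusoidal endothelial gene Gpr182 was at 0.619 ± 0.237 against 53.4 ± 3.69 RPM, while Lyve1 was higher, at 68.8 ± 4.79 against 31.8 ± 2.20. The 9 mesothelial markers summed to 571 to 606 RPM against 38.1 to 41.5, led by the keratin gene Krt19 at 360 ± 20.9 against 9.26 ± 0.455. The 14 fibroblast and mural markers summed to 9656 to 12063 against 17416 to 20364 RPM, most of it Col3a1 at 6087 ± 1083 against 15788 ± 1216. Others in that list went both ways. Dcn was higher, at 2104 ± 64.0 against 754 ± 42.0 RPM, as was Lum, at 343 ± 13.9 against 169 ± 12.0. Pdgfrb was lower, at 114 ± 11.8 against 351 ± 41.7 RPM. The part of these differences in the receptor levels was not tested.

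**Figure D4:**
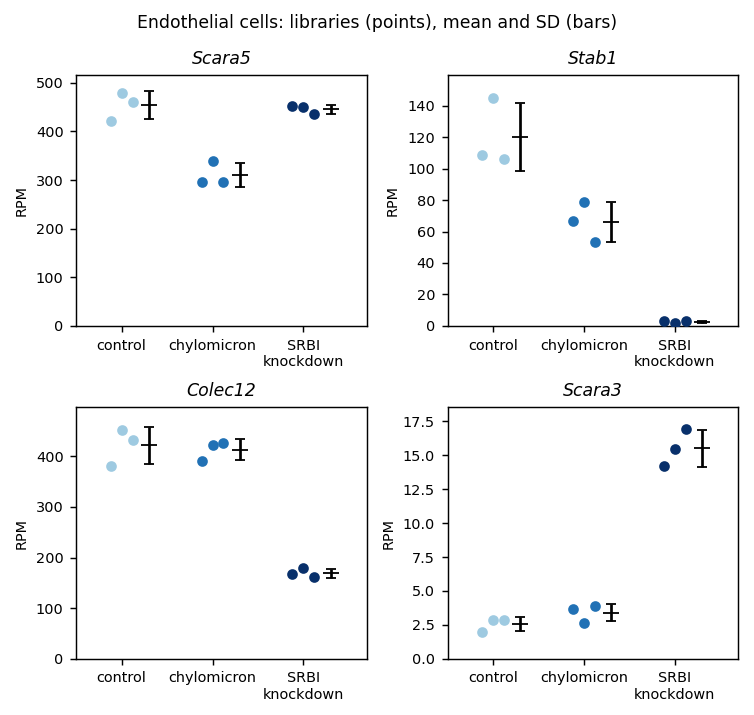
Levels in RPM (vertical axis, from 0) of 4 receptors in the 9 EC libraries by group (horizontal axis). Points are libraries, bars the mean and SD of 3 libraries, and the SRBI knockdown libraries come from a separate table. Scara5 is lower with chylomicrons alone, Stab1 is at 2.45 RPM and Scara3 at 15.5 RPM with knockdown.

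The related genes in EC with chylomicrons are given beside a background of 5.16% of all genes called higher and 3.28% lower. Among 15 other scavenger receptors tested, 2 rose and 0 fell by limma. At an unadjusted p under 0.05, 4 fell, against 0 by edgeR and 1 by DESeq2. Cxcl16 rose from 1001 ± 27.1 to 3173 ± 119 normalized counts (1.66, adjusted p = 3.19e-08) and the hyaluronan receptor gene Cd44 rose by 0.46. Of 13 hyaluronan genes 3 rose and 2 fell, with Tnfaip6, which encodes the hyaluronan-binding protein TSG-6, at 0.92 and Cemip, a hyaluronan-degrading protein gene, at -0.47. Of 10 genes for Stab1 sorting and ligands 2 rose, Postn by 0.48 and Tgfbi by 0.44, and 0 fell by limma, edgeR or DESeq2 (1 at an unadjusted p under 0.05). Tgfbi, a ligand of Stab1, thus rose in EC while Stab1 fell, and in PMAC both fell. Of 12 haem and ferritin genes 1 rose, Tfrc by 0.56, and 0 fell by limma, edgeR or DESeq2 (2 at an unadjusted p under 0.05). Of 15 transcription factors 4 rose and 1 fell, with Cebpb at 1.09 (adjusted p = 3.49e-05), Junb at 1.07 and Nr1h3, the LXR alpha gene, at 0.96. Of 11 lipoprotein loading genes 2 fell, Apoe by 0.51 and Soat1 by 0.29, and 0 rose by limma, edgeR, DESeq2 or an unadjusted p under 0.05.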

How the data were processed

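The deposited mRNA tables held a signal of normalized counts, per the labels and the values. Every nonzero value (100% in each library) was a whole number of reads times a factor per library, within 0.01 reads, so reads were recovered for alternatives and RPM. Per the submitters' processing notes STAR 2.7.3a, featureCounts, Subread 1.6.3, bcl2fastq and the builds mm10 and GRCm38 were used, with no roles given; the size factor method is not given in the sources used here. No pair of replicates was identical. Limma 3.58.1 in R 4.3.3 fitted log2 of normalized count plus 1 (empirical Bayes with a trend, two-sided), in genes averaging 10 or more; a fold change on that scale understates the change of low genes. On recovered reads edgeR 4.0.16 (quasi-likelihood, TMM) and DESeq2 1.42.0 were alternatives. The fit was tested on simulated data with the same dispersion for every gene, a simpler setting that cannot give error rates for these data. Receptors, lists and rules were chosen with earlier results of these data known. Named genes were the receptors, Scarb1, up to 3 genes per pathway list and comparison past the threshold by smallest p, and the 3 genes nearest to each receptor. Cd36, Cxcl16, Hmox1, Fth1, Spi1, Abcg1, Lyve1 and Tnfaip6 were added after their values were seen, as was Hp with knockdown against control. Some genes that the rule names are not reported here. Positions are those of RefSeq on GRCm38.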

Additional observations from a re-analysis of the deposited data

How the results depend on the processing

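Of 544 recomputed receptor values 517 stayed the same, 16 lost a call, 5 reversed and 6 with no test moved by more than the spread between replicates. Tested values stayed the same if they kept their direction and side of the threshold. Values with no test did so if they moved by less than that spread, whatever their sign where groups overlapped. For EC SRBI knockdown beside EC control, leaving out a library in turn gave log2 ratios of -0.08 to 0.01 for Scara5. For Cd163 they were -1.97 to 1.00. Of 88 recomputed counts 82 stayed within 1.5 times the main count. Without the mean-variance trend, 587 genes in place of 1317 passed in EC and 602 in place of 1525 between PMAC SRBI knockdown and chylomicron, and the cause was not tested. Leaving out a library in turn, the EC count ranged from 744 (without EC control replicate 1; 803 without replicate 2) to 1549, and the PMAC knockdown against chylomicron count from 822 (without SRBI knockdown replicate 1; 937 without replicate 2) to 1798. Among receptors whose sign reversed, none was past the threshold. Scara3 with chylomicrons in PMAC was -0.0013 with columns rescaled to equal totals, -0.52 (without chylomicron replicate 2) to 0.52 when a library was left out, and -0.32 without chylomicron replicates 1 and 2. Cd163 between knockdown and chylomicron ranged from -0.01 (without SRBI knockdown replicate 3; -0.0045 without chylomicron replicate 3) to 0.25. EdgeR called 1301 genes in EC, 4489 in PMAC with chylomicrons, 4238 with knockdown and 1561 between them, and DESeq2 called 1610, 4698, 4471 and 1884.

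Deviations from the group mean in libraries of the same replicate number had correlations of -0.161 to 0.175 over 3 pairs in EC. In PMAC they were -0.104 to 0.0746 over 9 pairs. Pairs of unlike number ranged from -0.404 to 0.319 in EC and -0.0422 to 0.105 in PMAC. With so few pairs and such ranges, the correlations cannot decide whether libraries of the same number belong together. With the replicate block 1581, 4270, 3844 and 1251 genes passed in the 4 comparisons, and among the receptors it changed the call of Msr1 with chylomicrons alone (adjusted p = 0.0843). Depth limited Scara3 in PMAC, Olr1, Cd163 and Stab2 in EC and Stab2 and Scara5 in PMAC, where differences were not detectable or rested on few reads.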
